A study of Mus musculus with 4 samples.

Results

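The genes described here encode 10 enzymes that convert high-mannose N-glycans into complex N-glycans: the mannose-trimming enzymes Man1a, Man1a2, Man1b1, Man1c1, Man2a1 and Man2a2, and the N-acetylglucosamine (GlcNAc) transferases Mgat1, Mgat2, Mgat3 and Mgat5. They were chosen by name for their known function, with earlier results of these data known. All 10 were found among the 34866 genes of the deposited count table by Ensembl identifier. RNA sequencing had been carried out on gastric mucosa of the corpus, the acid-secreting body of the stomach, from mice with a newly made Muc6 deletion and from controls. There were 2 libraries of genotype Muc6 +/+, called wild type here, and 2 of genotype Muc6 -/-, called knockout. The study set out to relate the gland mucin Muc6 to gastric carcinogenesis. Strain, age and sex of the mice, the cells in which the deletion acts and whether a library came from 1 animal or from pooled animals are not given in the labels or notes used here. Where the libraries of a genotype did not come from separate animals, the p-values measure only a technical spread.

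N-glycans are attached to proteins in the endoplasmic reticulum (ER) as a preformed branched sugar that carries glucose and mannose. After the glucose has been removed, class I mannosidases trim the mannose in the ER and the Golgi, Mgat1 adds the first GlcNAc, class II mannosidases remove further mannose, and Mgat2 adds the GlcNAc that makes the glycan complex. Mgat5 adds a further branch that can be extended with galactose and sialic acid, and Mgat3 adds a bisecting GlcNAc that hinders further branching. Glycoproteins secreted or displayed by gastric epithelium pass along this route, which is separate from the O-glycosylation that dominates mucins.

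Muc6 (ENSMUSG00000048191.15) followed the labels, with 8542 and 6000 counts in wild type 1 and 2 and with 0 and 10 counts in knockout 1 and 2. Total counts lay between 20327745 and 27946423 per library. The corpus was identifiable from its acid-secreting parietal cells: the 6 parietal markers summed to 16270 and 15790 CPM (counts relative to a library size scaled by TMM factors) in the wild-type libraries and to 802 and 5184 CPM in knockout 1 and 2, and all 6 were lower in knockout without overlap. Of the 5 chief cell markers, Lipf had 0 counts in all 4 libraries. Knockout 1 stood apart by genes of the antrum, the distal stomach. Nkx6-3, an antral transcription factor, was at 122 CPM in knockout 1 and between 0.312 and 0.454 CPM in the other libraries, and Gast, the gastrin gene, had 218 counts there and 1, 0 and 0 counts elsewhere. Pdx1 was at 59.0 CPM in knockout 1 and 2.52 CPM in knockout 2, against 0.282 and 0.052 CPM in wild type 1 and 2. The fourth antral marker, Sst, which the corpus also expresses, was lowest in knockout 1 at 20.7 CPM. The 5 squamous markers summed to 130 CPM in knockout 1 and 10.7 CPM in knockout 2, against 0.847 and 0.260 CPM in wild type 1 and 2. Both knockout libraries were thus above both wild-type libraries in this sum, with Trp63 at 0 in all 4. The 4 Y-linked genes measured summed to 136 and 121 CPM in the wild-type libraries and to 1.43 and 2.44 CPM in the knockout libraries. This is the pattern of male wild-type and female knockout mice, though the labels do not give sex. Genotype and sex therefore cannot be told apart for any gene reported here. In such bulk tissue, fewer cells of a type and less RNA per cell cannot be told apart either.

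No enzyme of the set passed the test over all genes. In the edgeR quasi-likelihood fit of knockout against wild type (2 libraries per genotype), 0 of the 10 enzymes had a Benjamini-Hochberg adjusted p under 0.05, as had 0 of all 14067 genes tested (0.0%). The deleted gene Muc6, with a log2 fold change of -10.6, had an edgeR adjusted p of 0.178 in this fit and did not pass either. Not passing this fit therefore does not show that a gene was unchanged. At an unadjusted p under 0.05 there were 2 enzymes, Man1a and Mgat2, both lower in knockout, against 15.9% of all genes tested in either direction and 6.68% in the lower direction. DESeq2 called 1 of the 10, Man1a, against 7.57% of the genes it tested. All 10 passed the filter on low counts. Their libraries did not overlap between genotypes for 7 of 10, with 4 higher in knockout (Man1a2, Man1b1, Mgat1, Mgat5) and 3 lower (Man1a, Man2a1, Mgat2). This has to be read against 50.1% of all genes, with 26.3% higher and 23.8% lower. The median log2 fold change was -0.02 over the 10 enzymes and -0.0017 over all genes, with a range from -0.87 for Man1a to 0.82 for Mgat5. Without knockout 1 the median over the enzymes was -0.16, and without knockout 2 it was 0.05. The fitted differences were above 0 for 5 enzymes and below 0 for 5. Without knockout 1 edgeR called 0 of the 10 (0.0615% of all genes), and without knockout 2 it called Man1a and Mgat5 (5.8% of all genes).

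**Figure D1:**
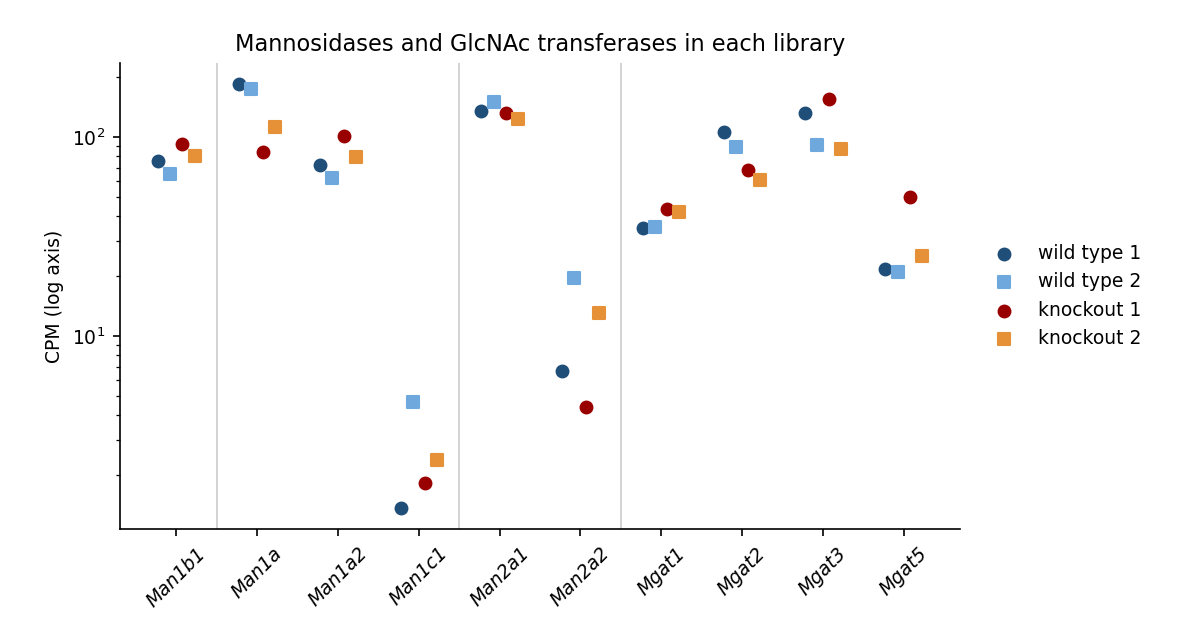
CPM (log axis) of the 10 genes in each of the 4 libraries, grouped from left to right into the ER mannosidase, the Golgi class I mannosidases, the Golgi class II mannosidases and the GlcNAc transferases. Man1a and Mgat2 lie lower in both knockout libraries, and Man1a2 and Mgat5 lie higher. Man1c1, Man2a2 and Mgat3 separate the libraries by number (1 or 2) and not by genotype, with Mgat3 higher in library 1 and the others higher in library 2.

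Levels of different genes were compared per kilobase of annotated exon (CPM per kilobase). In wild type the order of the group means was Mgat2 (37.3), Mgat3 (24.0), Man2a1 (19.8), Man1a (18.6), Man1b1 (13.1), Man1a2 (8.42), Mgat1 (7.42), Mgat5 (2.07), Man2a2 (1.28) and Man1c1 (0.529). The wild-type ranges overlapped between the neighbours Mgat3 and Man2a1, Man2a1 and Man1a, and Man2a2 and Man1c1, and these pairs have no order. The transferase of the second GlcNAc was thus the most abundant transcript of the set per length, and the branching transferase Mgat5 was among the 3 least abundant. In knockout the means were 25.9 for Mgat3 and 24.7 for Mgat2, with overlapping ranges, followed by Man2a1 (17.7), Man1b1 (16.02), Man1a2 (11.3), Man1a (10.2) and Mgat1 (9.05). The knockout ranges of Man2a1 and Man1b1 overlapped too, so that this pair has no order there. Man1a, which was above Man1b1 and Man1a2 in both wild-type libraries, was below Man1b1 in both knockout libraries, and its knockout range overlapped those of Man1a2 and Mgat1. The same 3 genes, Mgat5, Man2a2 and Man1c1, were the lowest in both genotypes.

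Man1b1 is the ER mannosidase that removes a single mannose from the glycan and takes part in singling out misfolded glycoproteins. The gene (ENSMUSG00000036646.13) lies on the plus strand of chromosome 2 at 25332338 to 25352212 (mm10). It was at 75.4 and 65.3 CPM in the wild-type libraries and 92.7 and 80.1 CPM in the knockout libraries. Both knockout libraries lay above both wild-type libraries, but the gap between the genotypes was smaller than the distance between the libraries of either. In the fit its log2 fold change was 0.30 ± 0.162 (SE, n = 2 per genotype), with an edgeR adjusted p of 0.463. It was 0.14 without knockout 1 and 0.19 without wild type 2.

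The Golgi class I mannosidases Man1a, Man1a2 and Man1c1 encode related enzymes that trim the glycan to the form Mgat1 accepts. Man1a was lower and Man1a2 higher in both knockout libraries, and the Man1c1 values overlapped between the genotypes; none of the 3 passed the edgeR test. Man1a (ENSMUSG00000003746.16; minus strand of chromosome 10, 53904785 to 54076609) was at 184 and 174 CPM in the wild-type libraries and 84.0 and 112 CPM in knockout 1 and 2. Every knockout value lay below every wild-type value, and the gap between the genotypes was wider than the distance between the libraries of either. In the fit its log2 fold change was -0.87 ± 0.21 (SE, n = 2 per genotype), which is 1.82-fold lower, with an edgeR unadjusted p of 0.0135 and an adjusted p of 0.237. By DESeq2 the adjusted p was 0.00571, and over the 14 alternatives run it ranged from 0.00571 to 0.738. Without knockout 1 the log2 fold change was -0.72, and without knockout 2 it was -1.14 with an edgeR adjusted p of 0.0458. The order of the libraries in Man1a was that of the summed parietal markers given above, high in both wild-type libraries, intermediate in knockout 2 and lowest in knockout 1. The part of parietal cell RNA in the Man1a difference was not tested.

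Man1a2 (ENSMUSG00000008763.16; minus strand of chromosome 3, 100562208 to 100685503) was at 72.0 and 62.1 CPM in the wild-type libraries and 101 and 78.9 CPM in the knockout libraries. Both knockout libraries were above both wild-type libraries, by less than the wild-type libraries lay apart, with a log2 fold change of 0.42 ± 0.191 (SE, n = 2 per genotype; edgeR adjusted p = 0.382). Without knockout 1 it was 0.19. Within a library, where no scaling between libraries enters, there were 2.56 and 2.81 Man1a counts per Man1a2 count in wild type and 0.834 and 1.43 in knockout 1 and 2. The ratio was thus 2.46-fold lower in knockout as a geometric mean, with no overlap between the genotypes. Since Man1a alone was lower and Man1a2 alone higher without overlap, the ratio could not overlap and is no further result. An exact two-sided permutation test of such a ratio cannot give a p below 0.333 with 2 libraries against 2, and none was made.

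Man1c1 (ENSMUSG00000037306.13; minus strand of chromosome 4, 134561690 to 134704290), the third Golgi class I gene, was scarce, with 34 and 90 counts in the wild-type libraries and 41 and 58 counts in the knockout libraries. Its levels of 1.37 and 4.69 CPM in wild type enclosed those of 1.84 and 2.39 CPM in knockout. Per kilobase, Man1a made up 67.3% and 67.7% of the summed level of the 3 genes in wild type and 40.2% and 53.1% in knockout. Man1a2 made up 31.9% and 29.2% against 58.3% and 45.1%, and Man1c1 at most 3.07% in any library. The wild-type libraries were close to each other in this composition, and in knockout 1 Man1a2 was the more abundant of the main pair. The summed level of the 3 genes was 28.4 and 26.7 CPM per kilobase in wild-type mucosa, against 21.7 and 22.0 in knockout mucosa.

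**Figure D2:**
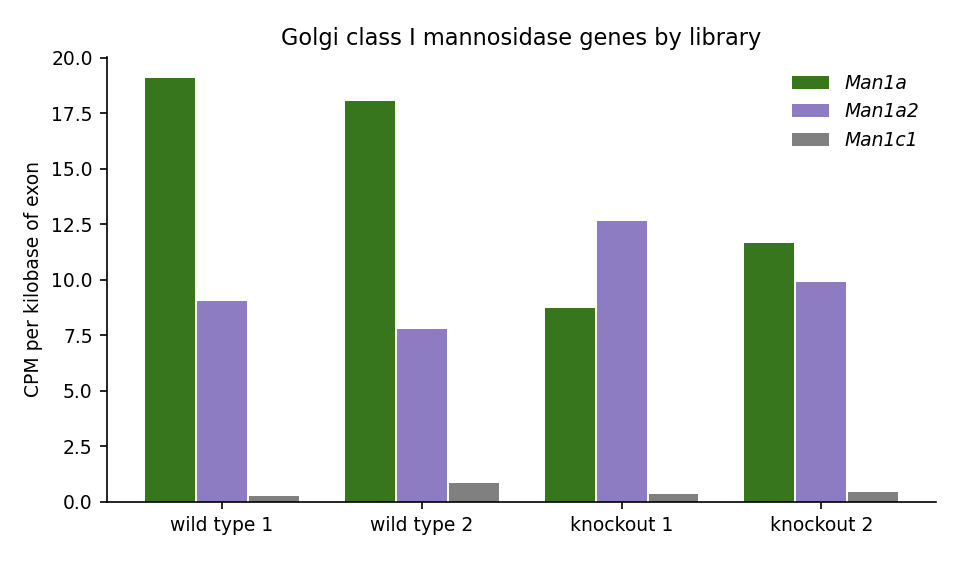
CPM per kilobase of annotated exon for the 3 Golgi class I mannosidase genes in each library, as bars from 0. In both wild-type libraries the Man1a bar is the taller (2.11 and 2.32 times the Man1a2 bar), in knockout 2 they are nearly level (a ratio of 1.18), and in knockout 1 Man1a2 is the taller (a ratio of Man1a to Man1a2 of 0.689).

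The promoter sequences of Man1a and Mgat2 are shown because these were the 2 enzymes with an unadjusted edgeR p under 0.05, both lower in knockout. RefSeq windows (GRCm38.p6, the assembly of mm10) of 300 bases, from 250 before to 50 after a transcription start, were found for 7 of the 10 genes, in 9 windows. They are written 5′ to 3′ on the strand of the gene, with capitals marking the CCAAT box (CCAAT or, on the other strand, ATTGG) and the GC box (GGGCGG or CCGCCC). The windows are chr10:54075688-54075987 on the minus strand for Man1a and chr12:69183908-69184207 on the plus strand for Mgat2. The Man1a window lies within the gene span given above, which reaches to 54076609, so its RefSeq start differs from the start of that span.
Man1a: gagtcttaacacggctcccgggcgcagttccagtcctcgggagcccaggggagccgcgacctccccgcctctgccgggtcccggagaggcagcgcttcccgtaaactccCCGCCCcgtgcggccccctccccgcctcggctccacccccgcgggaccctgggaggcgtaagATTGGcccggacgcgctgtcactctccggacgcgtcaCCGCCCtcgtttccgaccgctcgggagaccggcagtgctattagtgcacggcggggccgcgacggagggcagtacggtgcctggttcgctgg
Mgat2: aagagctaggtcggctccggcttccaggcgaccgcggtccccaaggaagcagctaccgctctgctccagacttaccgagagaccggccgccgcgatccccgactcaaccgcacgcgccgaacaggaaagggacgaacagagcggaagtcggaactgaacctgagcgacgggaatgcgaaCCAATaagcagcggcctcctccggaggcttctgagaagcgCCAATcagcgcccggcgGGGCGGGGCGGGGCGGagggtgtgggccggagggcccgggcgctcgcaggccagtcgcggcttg
The Man1a window holds 1 CCAAT box and 2 GC boxes, and the Mgat2 window holds 2 CCAAT boxes and 3 GC boxes in a row. Of the 9 windows, 4 hold a CCAAT box and 8 a GC box, against 37.4% and 35.7% of all 32851 RefSeq promoter windows of this length. Mgat1 has several of the 9 windows, among them the only window without a GC box, so the windows are not separate genes. Base composition was not taken into account. The Golgi stress response element, a motif described for genes induced when Golgi capacity is exceeded, was searched as ACGTGGC on both strands, since Golgi stress is named in the title of the series. These letters stood in 0 of the 9 windows and in 2.58% of all windows. A match of letters is a description of the sequence and does not show a factor at work.

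Class II mannosidases act after Mgat1 and open the way for Mgat2. Man2a1 (ENSMUSG00000024085.13; plus strand of chromosome 17, 64600736 to 64755110) was the steadier and far more abundant of the pair. It was at 135 and 151 CPM in the wild-type libraries and 132 and 124 CPM in the knockout libraries. The genotypes did not overlap, but the gap between them was smaller than the distance between the wild-type libraries, and the log2 fold change of -0.16 ± 0.159 (SE, n = 2 per genotype; edgeR adjusted p = 0.694) was about the size of its error. It was -0.26 without knockout 1 and -0.09 without wild type 2.

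Man2a2 (ENSMUSG00000038886.10; minus strand of chromosome 7, 80349097 to 80371375), whose product carries out the same step, was at 6.65 and 19.7 CPM in the wild-type libraries and 4.39 and 13.1 CPM in the knockout libraries. The 2 libraries of a genotype differed 2.96-fold in wild type and 2.99-fold in knockout, and library 2 was the higher in both. The log2 fold change of -0.58 ± 0.779 (SE, n = 2 per genotype; edgeR adjusted p = 0.776) was within its error and became 0.39 without wild type 2 and -0.07 without knockout 1. It was -1.16 without wild type 1 and -1.65 without knockout 2. Man1c1 had the same order within each genotype, and its log2 fold change of -0.51 ± 0.733 (edgeR adjusted p = 0.789) became 0.62 without wild type 2. It was -1.14 without wild type 1 and -0.79 without knockout 2. Markers of stromal, smooth muscle and endothelial cells had that order too, as did 4 of 6 immune markers. All 5 stromal markers (Col1a1, Col1a2, Col3a1, Dcn, Pdgfra) were higher in library 2 of both genotypes, summing to 44.2 and 461 CPM in the wild-type libraries and to 61.3 and 433 CPM in the knockout libraries. All 5 smooth muscle markers (249 and 1603 CPM against 354 and 1715 CPM in sum) and all 3 endothelial markers (4.52 and 50.6 CPM against 5.69 and 27.6 CPM) did so as well. None of these 13 markers was at 0 in any library. Of the 5 chief cell markers, 4 were also higher in library 2 of both genotypes and Lipf was at 0, with 64310 and 147700 CPM in the wild-type libraries and 2318 and 81330 CPM in the knockout libraries in sum. The part of any of these cells in the Man2a2 and Man1c1 values was not tested. Hddc3 shares exonic bases with Man2a2 on the opposite strand and was at 2.73 to 7.08 CPM. Mgat2 and Mgat5 have such partners too, Gm49383 at 1.51 to 3.67 CPM and Tmem163 at 0.0825 to 0.224 CPM. The annotation also places Gm16998 opposite exonic bases of Man1a, AA543186 opposite Man1b1 and Gm17133 opposite Man2a1, and the levels of these partners were not analysed here. Whether the counting used strand is not stated in the labels or notes used here, and without it reads of such partners cannot be told apart.

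**Figure D3:**
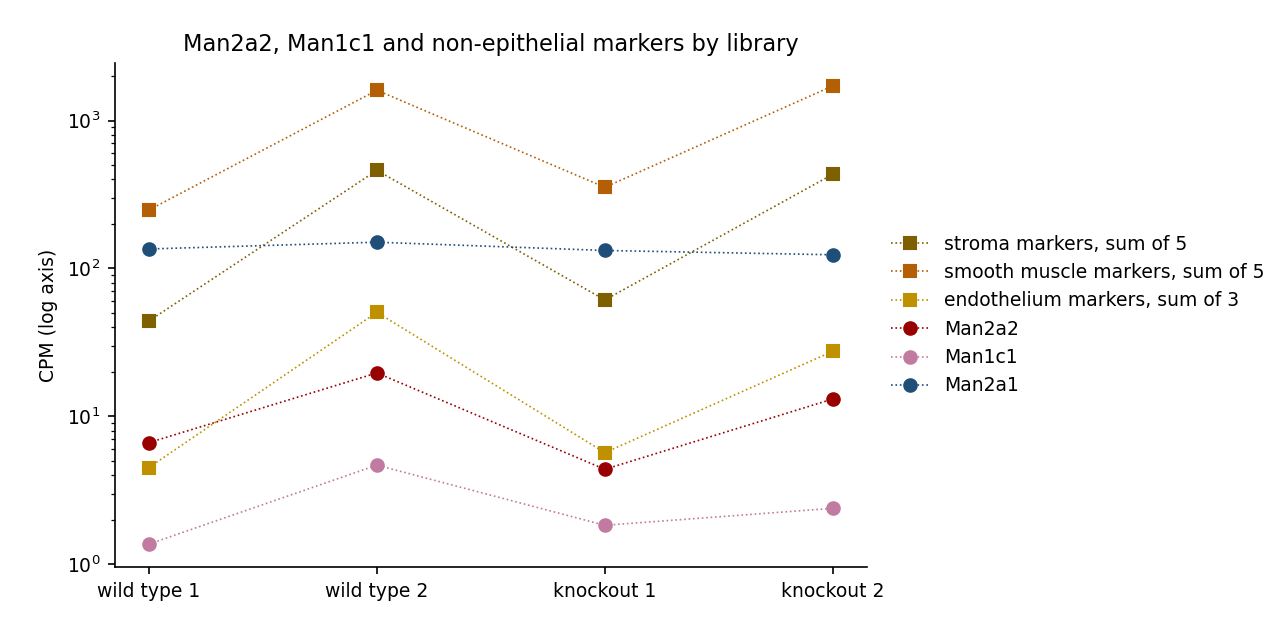
CPM (log axis) of Man2a2, Man1c1 and Man2a1 and summed CPM of the stromal, smooth muscle and endothelial markers in each library; dotted lines only join the points of a series. Man2a2 and Man1c1 are higher in library 2 of each genotype, as are the 3 marker sums, while Man2a1 stays between 124 and 151 CPM. The summed chief cell markers, which are not drawn, are higher in library 2 of each genotype too.

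Of the GlcNAc transferases that build the core of a complex glycan, Mgat1 was slightly higher and Mgat2 lower in knockout. Mgat1 (ENSMUSG00000020346.16; plus strand of chromosome 11, 49244191 to 49263030), which starts the conversion, was at 34.8 and 35.5 CPM in the wild-type libraries and 43.7 and 42.0 CPM in the knockout libraries. These were the most even values of the set, with libraries of a genotype within 1.04-fold of each other. Its log2 fold change was 0.29 ± 0.118 (SE, n = 2 per genotype), a 1.22-fold difference, with an edgeR adjusted p of 0.352.

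Mgat2 (ENSMUSG00000043998.10; plus strand of chromosome 12, 69184157 to 69186770), which adds the GlcNAc that makes complex glycans and whose promoter window is printed above, was at 106 and 89.0 CPM in the wild-type libraries and 68.5 and 60.7 CPM in the knockout libraries. Both knockout values lay below both wild-type values, by slightly more than the wild-type libraries lay apart. In the fit its log2 fold change was -0.60 ± 0.167 (SE, n = 2 per genotype), 1.51-fold lower, with an edgeR unadjusted p of 0.0219 and an adjusted p of 0.251. Unlike for Man1a, knockout 2, the library with more parietal marker expression, had the lower value, and without knockout 1 the difference was -0.73. The 4 surface pit cell markers, genes of the mucous cells that line the stomach, summed to 108900 and 72210 CPM in the wild-type libraries and 61720 and 48480 CPM in knockout 1 and 2, which is the library order of Mgat2. Of these markers 3 (Muc5ac, Gkn1 and Gkn2) were lower in knockout without overlap, Tff1 overlapped, and none was at 0 in any library. The part of pit cell RNA in the Mgat2 difference was not tested. There were 3.06 and 2.51 Mgat2 counts per Mgat1 count in wild type and 1.57 and 1.45 in knockout, a ratio 1.84-fold lower without overlap. This ratio too follows from the values of its 2 genes, which lay apart in opposite directions. By DESeq2 the adjusted p of Mgat2 was 0.0654, and over the alternatives it ranged from 0.0654 to 0.738.

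Mgat5 acts on the glycan that Mgat2 has completed. Mgat5 (ENSMUSG00000036155.13; plus strand of chromosome 1, 127205015 to 127488336), which adds the branch favoured for long galactose-containing chains, was at 21.6 and 20.98 CPM in the wild-type libraries and 50.1 and 25.1 CPM in knockout 1 and 2. The wild-type libraries were nearly equal, knockout 2 was slightly above them, and knockout 1 was 1.99-fold above knockout 2. The log2 fold change of 0.82 ± 0.368 (SE, n = 2 per genotype; edgeR adjusted p = 0.382) rested on knockout 1, the library with antral transcripts: without it the value was 0.19 (adjusted p = 0.630), and without knockout 2 it was 1.18 (adjusted p = 0.0284). Over all alternatives the adjusted p ranged from 0.0284 to 0.806. The summed markers of proliferation, mucous neck cells and squamous cells had the full library order of Mgat5, highest in knockout 1 and lowest in wild type 2. The summed antral markers did not, at 89.1 and 217 CPM in the wild-type libraries and 211 and 136 CPM in the knockout libraries. The part of antral tissue or of any of these cells in the Mgat5 difference was not tested.

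Mgat3 (ENSMUSG00000042428.6; plus strand of chromosome 15, 80173721 to 80215519), the bisecting transferase, was at 132 and 91.5 CPM in the wild-type libraries and 154 and 87.0 CPM in the knockout libraries. Library 1 was the higher in both genotypes, the reverse of Man2a2 and Man1c1. The knockout libraries lay on either side of the wild-type libraries, and the log2 fold change of 0.11 ± 0.37 (SE, n = 2 per genotype; edgeR adjusted p = 0.923) was within its error. It was -0.40 without knockout 1 and -0.14 without wild type 2. Without knockout 2 it was 0.42. There were 6.11 and 4.36 Mgat3 counts per Mgat5 count in wild type and 3.08 and 3.46 in knockout, a ratio 1.58-fold lower in knockout without overlap. Mgat5 counts per Mgat2 count were 0.204 and 0.236 in wild-type mucosa and 0.731 and 0.414 in knockout, 2.51-fold higher without overlap. Relative to both transferases, Mgat5 transcripts were thus more frequent in each knockout library than in either wild-type library. Mgat5 alone was higher and Mgat2 alone lower without overlap, so their ratio could not overlap and is no further result. The other ratios computed, Man1a to Man1c1, Man2a1 to Man2a2 and Mgat3 to Mgat1, overlapped between the genotypes.

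**Figure D4:**
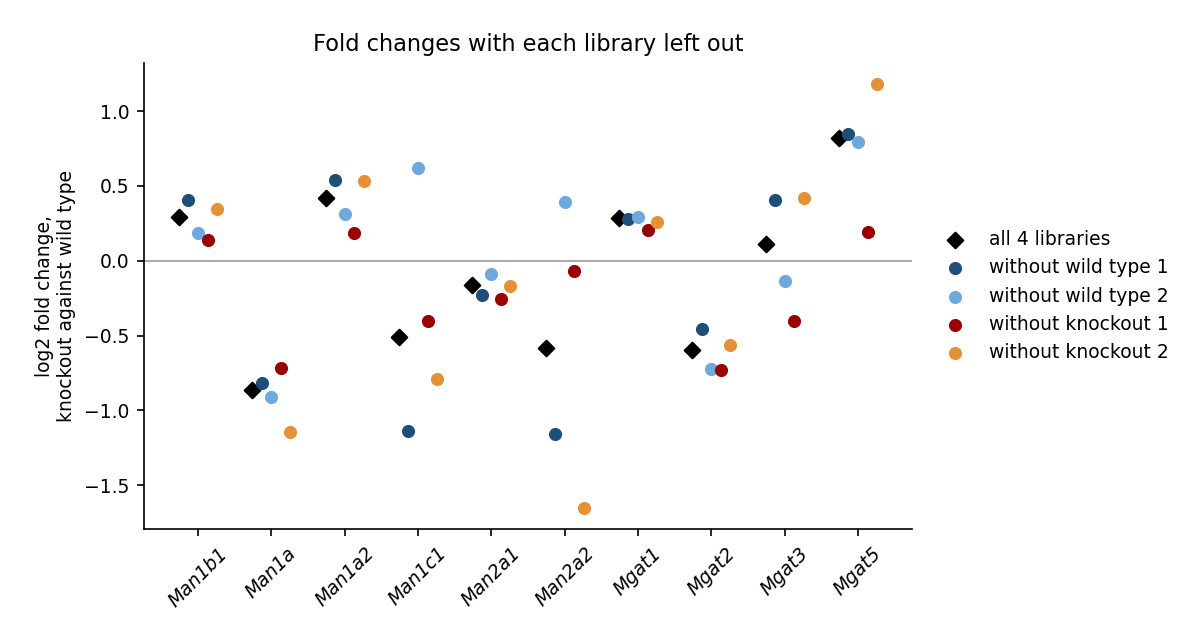
Log2 fold change of knockout against wild type for each of the 10 genes in the edgeR fit with all 4 libraries (diamonds) and with each library left out in turn (circles). Man1a and Mgat2 stay below 0 and Man1a2, Man1b1, Mgat1 and Mgat5 above 0 in all 5 fits, Man2a1 stays just below 0, and Man1c1, Man2a2 and Mgat3 change sign.

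Other genes of N-glycan processing were taken from a list of 37, of which 32 passed the filter on low counts. None passed over all genes tested by edgeR, and 10 of 32 had an unadjusted p under 0.05, with 5 higher and 5 lower, against the 15.9% of all genes. DESeq2 called 6 (Mogs, Prkcsh, Edem1, Fut8, St3gal4 and Gfpt1), against 7.57% of the genes it tested. The genotypes did not overlap for 20 of 32, with 10 higher and 10 lower, against the 50.1% of all genes given above, and the median log2 fold change was 0.10. This median changed sign when either knockout library was left out, to -0.04 without knockout 1 and -0.02 without knockout 2.

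Genes for glucose trimming and folding control, which precede mannose trimming, mostly had higher values in knockout, and none passed the edgeR test. All 8 passed the filter on low counts, 6 higher and 2 lower without overlap, against 26.3% and 23.8% of all genes. Their median log2 fold change was 0.44, and 0.26 without knockout 1. Markers of proliferation and of mucous neck cells were higher in knockout as well. All 4 proliferation markers were higher without overlap, summing to 215 and 164 CPM in the wild-type libraries and 386 and 333 CPM in the knockout libraries. The 5 mucous neck markers summed to 1448 and 1102 CPM against 12390 and 8381 CPM, most of it Tff2 (1021 and 679 CPM against 11700 and 7309 CPM). Of these, Tff2, Gkn3 and Aqp5 were higher without overlap, A4gnt overlapped, and the deleted Muc6 was lower. The part of such cells in the values of this group was not tested. Mogs, the glucosidase that removes the outermost glucose, was at 47.5 and 44.0 CPM in the wild-type libraries and 66.9 and 71.1 CPM in the knockout libraries (a log2 difference of 0.59 ± 0.129, SE, n = 2 per genotype, at an edgeR adjusted p of 0.228). Prkcsh, the beta subunit of the next glucosidase, stood at 70.6 and 67.6 CPM against 115 and 102 CPM (0.65 ± 0.145). Uggt1, which marks incompletely folded glycoproteins with glucose for another round of folding, stood at 88.9 and 75.7 CPM against 138 and 110 CPM, a log2 difference of 0.59 and of 0.37 without knockout 1. The lectin chaperone gene Calr stood at 573 and 474 CPM against 1007 and 727 CPM, a log2 difference of 0.73 and of 0.43 without knockout 1. The 2 lower genes were Uggt2, scarce at 1.61 to 2.50 CPM, and Manea. Manea encodes the Golgi endomannosidase that removes glucose together with mannose, a bypass of the ER glucosidases. It was at 23.6 and 25.04 CPM in the wild-type libraries and 4.75 and 12.2 CPM in knockout 1 and 2 (log2 fold change -1.52 ± 0.492; edgeR adjusted p = 0.286). Like Man1a and the summed parietal markers, Manea was lowest in knockout 1 and intermediate in knockout 2. Its log2 fold change was -1.05 without knockout 1 and -2.41 without knockout 2. The part of parietal cell RNA was not tested here either.

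Of the 3 EDEM genes, whose products trim mannose from glycoproteins bound for degradation, Edem1 was lower in knockout, at 128 and 122 CPM in the wild-type libraries and 78.5 and 89.4 CPM in the knockout libraries (a log2 difference of -0.57 ± 0.153, SE, n = 2 per genotype, at an edgeR adjusted p of 0.247). Edem1 had the library order of the summed parietal markers, and the part of parietal cell RNA in its difference was not tested. Edem2 and Edem3 overlapped between genotypes. The mannosidases of lysosomes and cytosol, Man2b1, Man2b2, Man2c1 and Manba, had log2 fold changes between -0.19 and -0.07, and Manba was at -0.48 without knockout 1 and -0.03 without knockout 2. Lower in knockout without overlap were 1 of the 3 EDEM genes (Edem1) and 1 of these 4 mannosidases (Man2c1), against 23.8% of all genes. In each group 0 were higher without overlap, against 26.3% of all genes.

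The further branching transferases Mgat4a and Mgat4b, which add another GlcNAc branch, overlapped between genotypes. Mgat4a was at 98.7 and 87.3 CPM in the wild-type libraries and 178 and 80.6 CPM in knockout 1 and 2, so that knockout 1 was the highest library, as for Mgat5. Mgat4b stood at 99.1 and 75.5 CPM against 118 and 83.1 CPM. Mgat4d and Mgat4e had 0 counts in all 4 libraries, and Mgat4c and Mgat5b did not pass the filter.

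Genes that finish the branches had values in both directions. Of 10 tested, 1 was higher and 5 were lower in knockout without overlap, against 26.3% and 23.8% of all genes. Their median log2 fold change was -0.43, and -0.15 without knockout 1. Fut8, which adds the core fucose, was at 112 and 88.9 CPM in the wild-type libraries and 61.5 and 46.3 CPM in the knockout libraries (a log2 difference of -0.90 ± 0.224, SE, n = 2 per genotype, at an edgeR adjusted p of 0.239). B4galt1, which adds galactose to branch GlcNAc, stood at 232 and 176 CPM against 149 and 146 CPM. Its log2 difference was -0.47 ± 0.208, and -0.25 without wild type 1. Fut8 and B4galt1 had the library order of the summed pit cell markers, and the part of pit cell RNA in their differences was not tested. B3gnt2, which extends branches with further GlcNAc, stood at 50.4 and 40.2 CPM against 21.6 and 39.6 CPM, a log2 difference of -0.57, which was -0.24 without knockout 1 and -1.12 without knockout 2. The higher gene was St3gal4, a sialyltransferase of galactose ends, at 10.1 and 13.7 CPM in the wild-type libraries and 43.1 and 34.4 CPM in the knockout libraries (log2 fold change 1.70 ± 0.23; edgeR adjusted p = 0.197). By DESeq2 the adjusted p of St3gal4 was 6.0e-05, and over the alternatives it ranged from 6.0e-05 to 0.738. St6gal1, which caps N-glycans with sialic acid in another linkage, was at 1.21 and 4.06 CPM against 0.762 and 2.64 CPM, with the library order of Man2a2.

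Genes that supply the donor sugar UDP-GlcNAc were higher in 3 of 5 tested without overlap and lower in 1, Uap1, against 26.3% and 23.8% of all genes. Gfpt1, the enzyme at the entry of the hexosamine pathway, was at 315 and 257 CPM in the wild-type libraries and 526 and 558 CPM in the knockout libraries (a log2 difference of 0.92 ± 0.214, SE, n = 2 per genotype, at an edgeR adjusted p of 0.229). Its DESeq2 adjusted p was 2.1e-04, with a range over the alternatives from 2.1e-04 to 0.742. Pgm3, further along the pathway, stood at 9.88 and 9.47 CPM against 11.96 and 16.1 CPM, a log2 difference of 0.54 and of 0.25 without knockout 2. Slc35a3, which carries UDP-GlcNAc into the Golgi, stood at 196 and 173 CPM against 306 and 219 CPM (0.51 ± 0.244, and 0.20 without knockout 1).

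**Figure D5:**
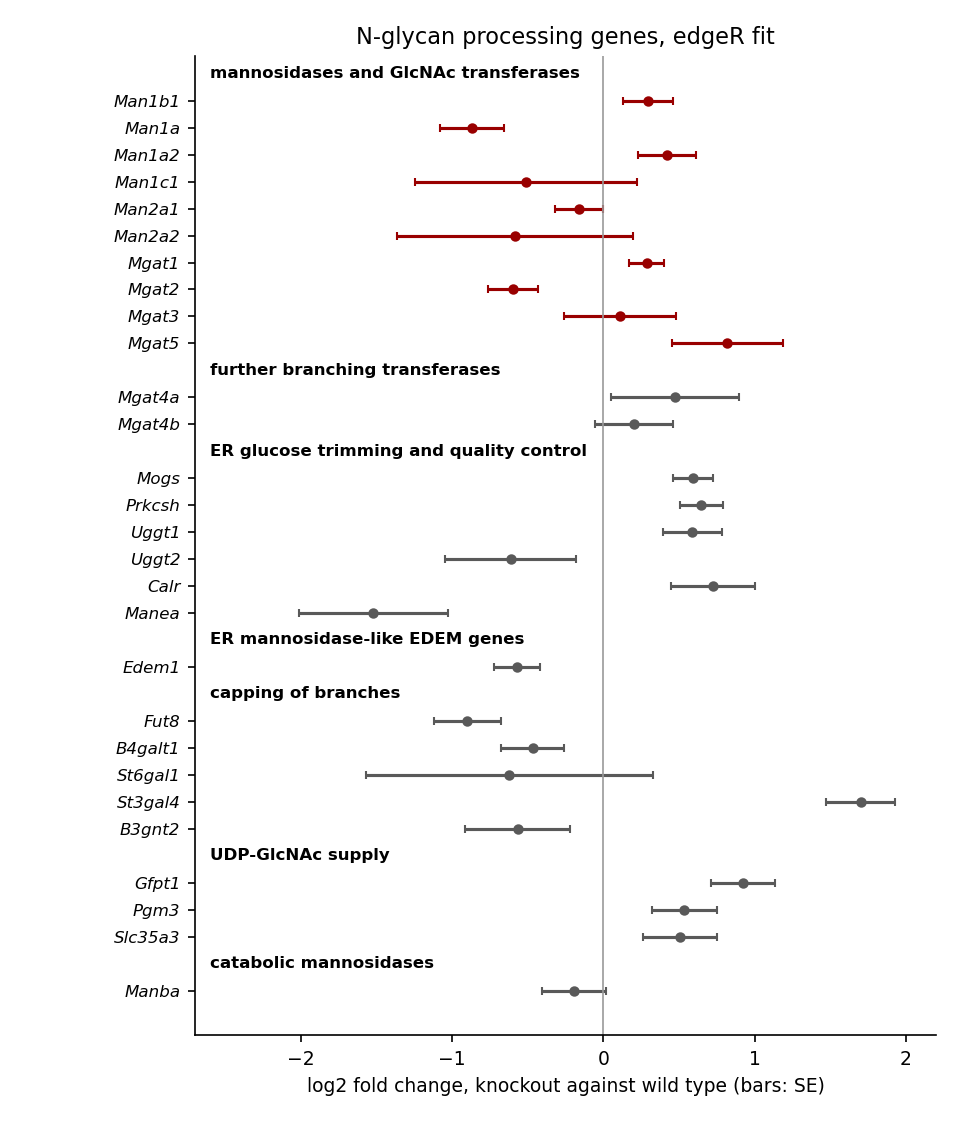
Log2 fold change of knockout against wild type (points) with its SE (bars) from the edgeR fit for the 10 mannosidase and GlcNAc transferase genes (red) and the 18 other N-glycan processing genes named here (grey), by group. Points lie on both sides of 0 among the red genes, from Man1a at -0.87 to Mgat5 at 0.82, while Manea at -1.52 and St3gal4 at 1.70 lie farthest out among the grey genes.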

How the data were processed

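The library kit was a stranded mRNA kit, per the labels' protocols, and the build was mm10, per the submitters' processing notes; aligner and counting program: not given in the sources used here. The deposited values are estimated counts for each gene, which the authors had not normalized as far as the values show. Of its nonzero values 35.0% were not whole, and these expected counts were rounded. Symbols, positions and exon lengths (union over transcripts) come from GENCODE M21, matched by identifier without version for 34652 of 34866 rows. Counts were tested with edgeR 4.0.16 in R 4.3.3 (quasi-likelihood, legacy deviance, robust dispersion, TMM factors, filterByExpr with a minimum of 10 counts, no covariate), with Benjamini-Hochberg adjustment over 14067 genes at 0.05. The SE is the log2 fold change divided by the square root of F. DESeq2 1.42.0 and limma 3.58.1 (voom) were among 14 alternatives. The fits were tested on simulated data. Libraries of 1 genotype differed by more than sampling noise (chi-square per degree of freedom 148 in wild type and 293 in knockout). The enzymes, lists and alternatives were chosen with earlier results of these data known. Besides the 10 enzymes, pathway genes were named when past the threshold, when the genotypes did not overlap with an absolute log2 fold change of at least 0.5, or from a fixed set of 8; Edem2, Edem3, Uap1, the lysosomal and cytosolic mannosidases other than Manba, and the untested transferases were named after their values were seen. DESeq2 gave no adjusted p for genes it set aside for low counts, and these are not counted as tested by it.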

Additional observations from a re-analysis of the deposited data

How the results depend on the processing

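Of 140 results for the 10 enzymes under 14 alternatives, 133 kept direction and side of the threshold, and 7 of 10 enzymes kept their direction under every alternative run. In the main fit and in most alternatives 0 genes passed, so the side of the threshold could not change there. With each library left out in turn, the log2 fold change ranged from -1.14 to 0.62 for Man1c1, from -1.65 to 0.39 for Man2a2 and from -0.40 to 0.42 for Mgat3, with the sign changed without wild type 2 (Man1c1, Man2a2 and, at -0.14, Mgat3) and without knockout 1 (Mgat3). Among the 18 other named genes the range was -0.25 to 0.88 for Mgat4a and -0.12 to 0.42 for Mgat4b, with the sign changed without knockout 1, and -1.85 to 0.49 for St6gal1, with the sign changed without wild type 2. Man1a ranged from -0.72 to -1.14 and Mgat5 from 0.19 to 1.18, and both passed the threshold without knockout 2; Man1a also passed by DESeq2 (-0.89). The cause was not tested. DESeq2 called 1044 genes, 1 of them among the 10 enzymes, and without a filter on low counts edgeR called 9 genes and 0 enzymes. With each library left out in turn, called genes ranged from 0 to 851 and called enzymes from 0 to 2, with the highest counts without knockout 2 and with 9 genes without knockout 1. In these fits 1 genotype has a single library, which is assumed to vary like the other genotype. The median over the enzymes ranged from -0.16 without knockout 1 to 0.24 without wild type 2. With the replicate block, the number in the sample names as a block, 0 genes and 0 enzymes passed, with Man1a at -0.88 (edgeR adjusted p = 0.143). Man2a2 was at -0.59 ± 0.166 (adjusted p = 0.178) in that fit, against an SE of 0.779 without the block. Mgat3 was at 0.08 ± 0.131 with the block, against an SE of 0.37 without it. The labels do not say that a number marks a shared animal, litter or day, but deviations from the genotype means of same-numbered libraries correlated across genes (Pearson r = 0.53, 14067 genes, which are not independent). Scaling moved the median of all genes by less than 0.1. Man1c1 had the fewest counts of the enzymes, 34 to 90 per library; how far depth set its error was not tested.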
